A study of Mus musculus with 16 samples.

Results

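The 46 genes described here encode the secreted and membrane-bound matrix metalloproteinases (23 *Mmp* genes), the ADAMTS proteases (19 *Adamts* genes) and the tissue inhibitors of metalloproteinases (4 *Timp* genes). They are all genes with such symbols among the 31274 of an RNA-seq expression table. The table covered the seminal vesicle (SV), the paired gland that secretes much of the seminal fluid, of male C57BL/6 mice at week 5, in 4 groups of 4 samples each. WT-veh mice received corn oil by subcutaneous injection on days 1 to 5 after birth, and WT-DES mice received 2 µg per pup per day of diethylstilbestrol (DES), a synthetic oestrogen, in the same oil. αERKO-veh and αERKO-DES mice had the same treatments but lacked oestrogen receptor α (ERα) in all tissues through disruption of *Esr1*. They were bred from heterozygous parents, whereas pups of the WT groups came from dams bought from a supplier, so genotype and source of the litter cannot be told apart. The methods describe RNA from individual mice in 3 of the groups and from 3 pools of mice for WT-DES, fewer than its samples, and do not say how the pools relate to the 4 WT-DES samples. p-values therefore measure the spread between these samples, which for WT-DES may be a spread between pools and not between mice, and the 4 WT-DES samples may not all be independent.

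Matrix metalloproteinases are zinc-dependent endopeptidases that cut collagens, proteoglycans and glycoproteins of the extracellular matrix, and release growth factors and cytokines held there. ADAMTS proteases are secreted enzymes with thrombospondin repeats. Some cut the large proteoglycans aggrecan and versican, and others trim procollagen. TIMPs bind the active site of these enzymes in a 1-to-1 complex. In the male tract these enzymes take part in branching of the gland and in remodelling of the stroma after hormonal change.

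Levels are in FPKM, the number of fragments on a gene for its length and for the size of the library. Genes of different length can thus be set beside each other within a sample. Between samples the scale is less sure, because each value is relative to the rest of its library. The group mean of the summed FPKM differed, with 410956 as the lowest (WT-DES) and 613782 as the highest (WT-veh). The effect of rescaling the samples is therefore given below. A gene was tested if its mean FPKM was above 1 in at least 1 group, which 33 of the 46 members passed (14 *Mmp*, 15 *Adamts* and all 4 *Timp*) among 15988 genes. Changes are differences in mean log2(FPKM + 1), which understate the change of low genes. A gene was called when the limma p adjusted over all genes tested did not exceed 0.05, the 2 mean FPKM differed at least 1.5-fold and 1 of them was above 1. *Esr1* was at 2.81 to 4.55 FPKM in WT-veh and 8.74 to 19.6 in WT-DES, and at 0.91 to 1.75 in the 8 αERKO samples, with no overlap between the genotypes. Judged by the steps of its lowest values, the relative depth of the samples was 1.08 to 1.2 in WT-DES and 0.89 to 0.99 in the other 3 groups, and the absolute depth stayed unknown. Markers of SV secretion were at 12.3 to 12.5 in mean log2(FPKM + 1) in WT-veh and 7.32 to 9.36 in WT-DES, with all 10 of them lower.

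Neonatal DES shifted most of the protease genes upwards in WT mice. Of the 33 members tested, 24 (72.7%) rose and 4 fell in WT-DES compared with WT-veh, and 5 were not called. Of all genes tested, 52.7% were called, 28.9% as higher and 23.9% as lower, which is the background for these counts. Among the 24, *Adamts3*, *Adamts4*, *Adamts6*, *Mmp3*, *Mmp8*, *Mmp16* and *Mmp25* had a mean above 1 FPKM in WT-DES alone, so these 7 were tested only through the group in which they were high, as were 8.1% of all genes. The samples of the 2 groups did not overlap for 24 members that were higher and 2 that were lower, against 32.7% and 34.0% of all genes. The median change was 1.08 over the members and −0.01 over all genes. By family, 10 of 14 *Mmp* genes rose and 1 fell, 12 of 15 *Adamts* genes rose and 2 fell, and 2 of 4 *Timp* genes rose and 1 fell. The genes that fell were *Timp1*, *Adamts8*, *Adamts17* and *Mmp7*, the last 2 with samples that overlapped between the groups. *Adamts14*, *Mmp15*, *Mmp17*, *Mmp28* and *Timp4* were not called. In bulk tissue, fewer cells of a type and less RNA per cell cannot be told apart, so each change may be either. Rescaling the samples to equal totals without the 20 genes of highest mean FPKM moved the median of all genes by 0.39, and the share of all calls that were higher from 54.7% to 79.2%. Then 25 members rose and 1 fell, and the median of the members stood above that of all genes by 1.09 before and 1.05 after it.

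**Figure D1:**
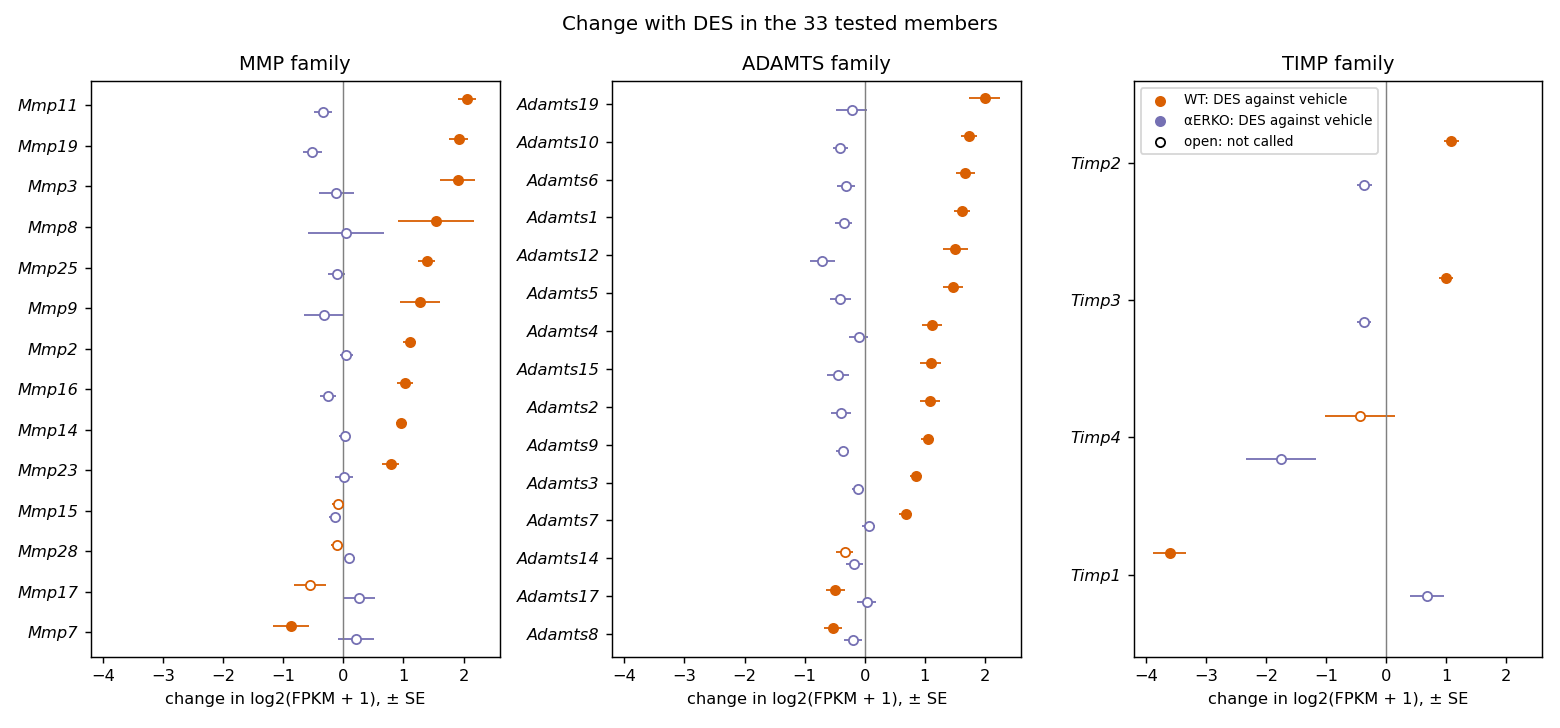
Change in log2(FPKM + 1) with DES, with its standard error, for the 33 tested members in WT (orange) and in αERKO (purple) mice; filled points were called and open points were not. In WT, 24 points are filled to the right of 0 and 4 to the left, and in αERKO none is filled.

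The inhibitors moved in opposite directions. *Timp1* (chrX:20870166-20874735, plus strand; here and below, GENCODE on GRCm38) encodes the inducible inhibitor of the family and had the highest mean level of the inhibitors in WT-veh. The samples read 447, 369, 399.7 and 404 for WT-veh, 48.6, 20.6, 21.3 and 50.8 for WT-DES, 245, 128, 139 and 203 for αERKO-veh and 317, 291, 285 and 221 for αERKO-DES. The WT-DES samples were the lowest of the 16, below every other sample, and the αERKO-veh samples lay below those of WT-veh without overlap. *Timp1* fell 11.5-fold by the ratio of mean FPKM in WT-DES, a log2 change of −3.60 (SE 0.28, limma adjusted p = 3.45e-08), the largest of any member in size on the log2(FPKM + 1) scale. WT-DES samples 1 and 4, the higher 2 for *Timp1*, were also the higher 2 in mean SV secretion markers, at 9.36 and 9.12 against 7.32 and 7.62 in samples 2 and 3, and the part of secretory cells in the fall was not tested. It was also lower in αERKO-veh than in WT-veh, with a log2 difference of −1.22 (SE 0.28, limma adjusted p = 0.00994). SV secretion markers had a mean of 12.30, 11.65, 11.97 and 12.01 in αERKO-veh samples 1 to 4, the same order as *Timp1*. The orders differed in the other vehicle group, where WT-veh sample 2 had the highest marker mean (12.52) and the lowest *Timp1*. They also differed in αERKO-DES, where sample 3 had the highest marker mean (12.73) and sample 1 the highest *Timp1*. The summed FPKM of these markers was 34375 to 54221 in αERKO-veh and 56476 to 65386 in WT-veh, without overlap. None of the 10 was called, and their part in the *Timp1* difference was not tested. In αERKO mice the change of *Timp1* with DES was 0.68 (SE 0.28, limma adjusted p = 0.153), which was not called.

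*Timp2* (chr11:118301069-118355740, minus strand), which also helps to activate pro-MMP2 at the cell surface, had FPKM values of 82.1, 83.2, 73.3 and 80.2 for WT-veh, 216, 154, 167 and 149.9 for WT-DES, 74.1, 109.8, 75.4 and 94.2 for αERKO-veh and 66.7, 67.6, 63.7 and 72.2 for αERKO-DES. The 4 WT-DES samples were above all 12 others. It rose by 1.08 (SE 0.13, limma adjusted p = 2.10e-06) in WT. *Timp3* (chr10:86300372-86349506, plus strand), the inhibitor bound to the matrix that also blocks several ADAMTS enzymes, was at 46.0, 49.3, 39.9 and 44.3 for WT-veh, 92.1, 86.7, 97.1 and 85.7 for WT-DES, 52.5, 79.9, 57.0 and 66.1 for αERKO-veh and 41.5, 51.6, 45.9 and 57.1 for αERKO-DES. Again the WT-DES samples were the 4 highest, and the αERKO-veh samples lay above WT-veh without overlap. It rose by 1.00 (SE 0.12, limma adjusted p = 3.05e-06). Exons of *Timp3* overlap those of *Syn3* on the other strand by 1733 nt, and whether fragments were counted by strand is not given in the sources used here. *Timp4* (chr6:115241892-115252205, minus strand), the member best known from heart, was at 1.70, 0.99, 5.48 and 22.7 for WT-veh, 1.77, 3.85, 2.51 and 4.21 for WT-DES, 7.16, 9.90, 9.38 and 4.50 for αERKO-veh and 1.17, 3.47, 0.56 and 1.60 for αERKO-DES. WT-veh overlapped each of the other groups, with its sample 4 above all others, and the αERKO-veh samples were above those of WT-DES and αERKO-DES without overlap. Its change in WT-DES was −0.44 (SE 0.59, limma adjusted p = 0.512) and turned to 0.28 without WT-veh sample 4. That sample also had a mean of 5.96 for 14 skeletal muscle markers, against 2.07 to 3.21 in the other WT-veh samples. Its mean of adipose markers was 5.57, against 3.59 to 5.02 in the others. Skeletal muscle markers were at 3.56 to 6.79 in αERKO-veh. There, sample 4 had the lowest *Timp4* with a muscle mean of 5.94, and sample 3, at 9.38 FPKM, had the lowest adipose mean, 2.56. The part of these cells in the *Timp4* values was not tested.

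With *Timp1* falling and *Timp2* and *Timp3* rising, the make-up of the inhibitor pool changed. *Timp1* held 75.3% ± 2.28 (SD, n = 4) of the summed FPKM of the 4 *Timp* genes in the WT-veh group, against 11.5% ± 4.85 for WT-DES, 52.1% ± 10.7 for αERKO-veh and 69.9% ± 4.99 for αERKO-DES. *Timp2* was the largest in WT-DES, with 57.0% ± 3.73 of the sum. The sum itself was 537 ± 33.6 FPKM for WT-veh, 300.4 ± 40.1 for WT-DES, 339 ± 44.5 for αERKO-veh and 397 ± 32.5 for αERKO-DES. The summed FPKM of the *Mmp* genes apart from *Mmp7* was 0.424 ± 0.0221 of the *Timp* sum for WT-veh, 1.48 ± 0.208 for WT-DES, 0.588 ± 0.082 for αERKO-veh and 0.502 ± 0.0472 for αERKO-DES. With *Mmp7* included, the ratio was 0.859 ± 0.0736 for WT-veh, 1.94 ± 0.284 for WT-DES, 1.65 ± 0.508 for αERKO-veh and 1.49 ± 0.13 for αERKO-DES. Both αERKO groups lay above WT-veh without overlap with or without *Mmp7*, and αERKO-veh overlapped WT-DES only with *Mmp7* included. These sums are descriptions of transcript levels, not of enzyme activity, and were not tested.

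**Figure D2:**
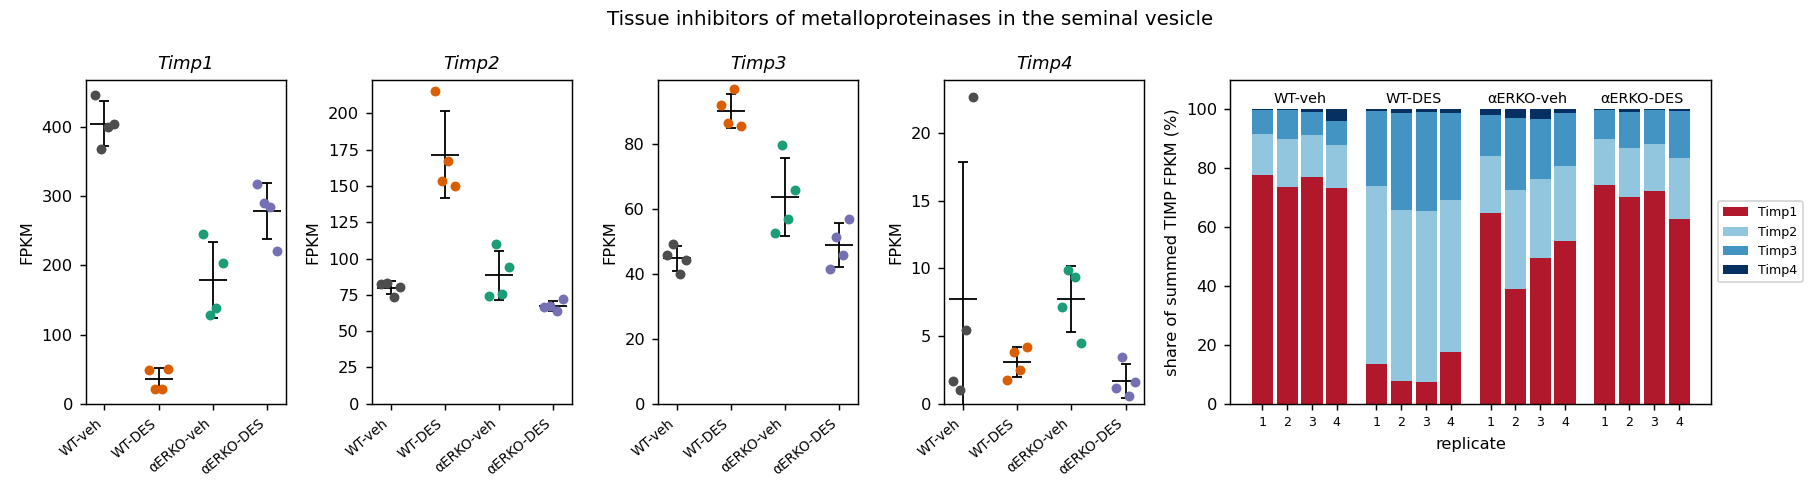
FPKM of *Timp1* to *Timp4* in each sample (points) with the mean and SD of each group of 4 (bars; the lower bar of *Timp4* in WT-veh is cut at 0), and, at the right, the share of each gene in the summed *Timp* FPKM of each sample. *Timp1* holds 73.3% to 77.5% of the sum in WT-veh and 7.39% to 17.5% in WT-DES.

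Among the metalloproteinases, the enzymes known from stroma with the highest levels rose. *Mmp2* (chr8:92827291-92853420, plus strand), the gelatinase A that degrades type IV collagen, had FPKM values of 92.1, 81.5, 78.1 and 83.5 for WT-veh, 164, 199.6, 204 and 162 for WT-DES, 65.7, 77.1, 62.1 and 81.5 for αERKO-veh and 80.9, 73.7, 63.8 and 77.4 for αERKO-DES. *Mmp14* (chr14:54431612-54445364, plus strand), the membrane-type enzyme that activates pro-MMP2, was at 60.8, 60.2, 55.8 and 60.6 for WT-veh, 101, 132, 128 and 108 for WT-DES, 46.5, 55.4, 49.5 and 57.8 for αERKO-veh and 53.2, 49.3, 58.6 and 50.6 for αERKO-DES. For both genes the 4 WT-DES samples were the highest and the other 3 groups overlapped. *Mmp2* rose by 1.11 (SE 0.11, limma adjusted p = 3.11e-07) and *Mmp14* by 0.96 (SE 0.09, limma adjusted p = 2.96e-07). Mean fibroblast marker levels moved with them, at 5.71 to 5.85 in WT-veh and 6.94 to 7.28 in WT-DES in mean log2(FPKM + 1), with 5 of 7 markers higher. The part of stromal cell number in these changes was not tested.

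The largest rises of *Mmp* genes were in enzymes of lower level. *Mmp11* (chr10:75923222-75936496, minus strand), stromelysin 3, which is known from fibroblasts beside remodelling epithelium and is activated inside the cell by furin, was at 3.34, 3.32, 3.29 and 3.38 for WT-veh, 14.3, 21.7, 17.0 and 15.98 for WT-DES, 2.57, 3.83, 2.10 and 3.51 for αERKO-veh and 2.58, 2.57, 1.66 and 1.74 for αERKO-DES. The WT-veh samples hardly varied, and each WT-DES sample was above every other sample. It rose by 2.06 (SE 0.15, limma adjusted p = 2.29e-08). *Mmp19* (chr10:128790910-128800824, plus strand), an enzyme that cuts basement membrane components, was at 2.68, 2.00, 2.4 and 2.66 for WT-veh, 12.8, 11.9, 10.3 and 13.1 for WT-DES, 1.83, 4.26, 2.46 and 3.15 for αERKO-veh and 1.29, 1.67, 1.84 and 1.95 for αERKO-DES. The WT-DES samples again stood apart. It rose by 1.92 (SE 0.16, limma adjusted p = 5.97e-08), and its exons overlap those of *Tmem198b* on the other strand by 789 nt.

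*Mmp9* (chr2:164940780-164955850, plus strand), gelatinase B, which neutrophils store in granules and macrophages secrete, was at 3.33, 2.4, 2.4 and 3.18 for WT-veh, 21.4, 4.41, 5.30 and 8.48 for WT-DES, 2.22, 2.80, 1.23 and 2.48 for αERKO-veh and 1.74, 1.80, 1.56 and 1.00 for αERKO-DES. WT-DES sample 1 was far above the other 3 WT-DES samples, all of which were still above the remaining groups. It rose by 1.28 (SE 0.33, limma adjusted p = 0.0028), and by 0.85 (limma adjusted p = 0.00199) without WT-DES sample 1. The same sample led in the neutrophil markers, whose mean log2(FPKM + 1) was 5.45 in WT-DES sample 1, 2.97 to 3.54 in the other WT-DES samples and 0.42 to 0.57 in WT-veh. All 8 neutrophil markers in the table rose in WT-DES, as did all 8 macrophage markers and 10 of 11 leukocyte markers. The part of these cells in the *Mmp9* change was not tested.

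*Mmp25*, the membrane-anchored enzyme of leukocytes, went from 0.12 ± 0.0311 FPKM in WT-veh to 1.98 ± 0.721 in WT-DES, and *Mmp16* and *Mmp23* also rose, to 2.45 ± 0.379 and 33.5 ± 7.5 from 0.69 ± 0.068 and 18.7 ± 1. The enzymes that were not called had appreciable levels. *Mmp15*, a membrane-type enzyme, was at 29.5 ± 2.38 in WT-veh and 27.7 ± 2.44 in WT-DES, and *Mmp28*, epilysin, known from epithelia, at 10.99 ± 1.05 and 10.1 ± 0.584. *Mmp17* was at 15.4, 16.2, 12.1 and 12.7 in WT-veh and 21.0, 6.34, 6.11 and 8.46 in WT-DES, where sample 1 was above and samples 2 to 4 below every WT-veh sample. The mean of 7 smooth muscle markers was likewise above WT-veh (8.41 to 8.74) in WT-DES sample 1, at 8.89, and below it in samples 2 to 4, at 6.57 to 7.29. Samples 2 and 3 had the reverse order in the markers. In WT-DES 5 of 7 markers were lower, and the part of these cells in the *Mmp17* values was not tested. Its change was −0.55 (SE 0.27, limma adjusted p = 0.075), and without WT-DES sample 1 the gene was called as lower.

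**Figure D3:**
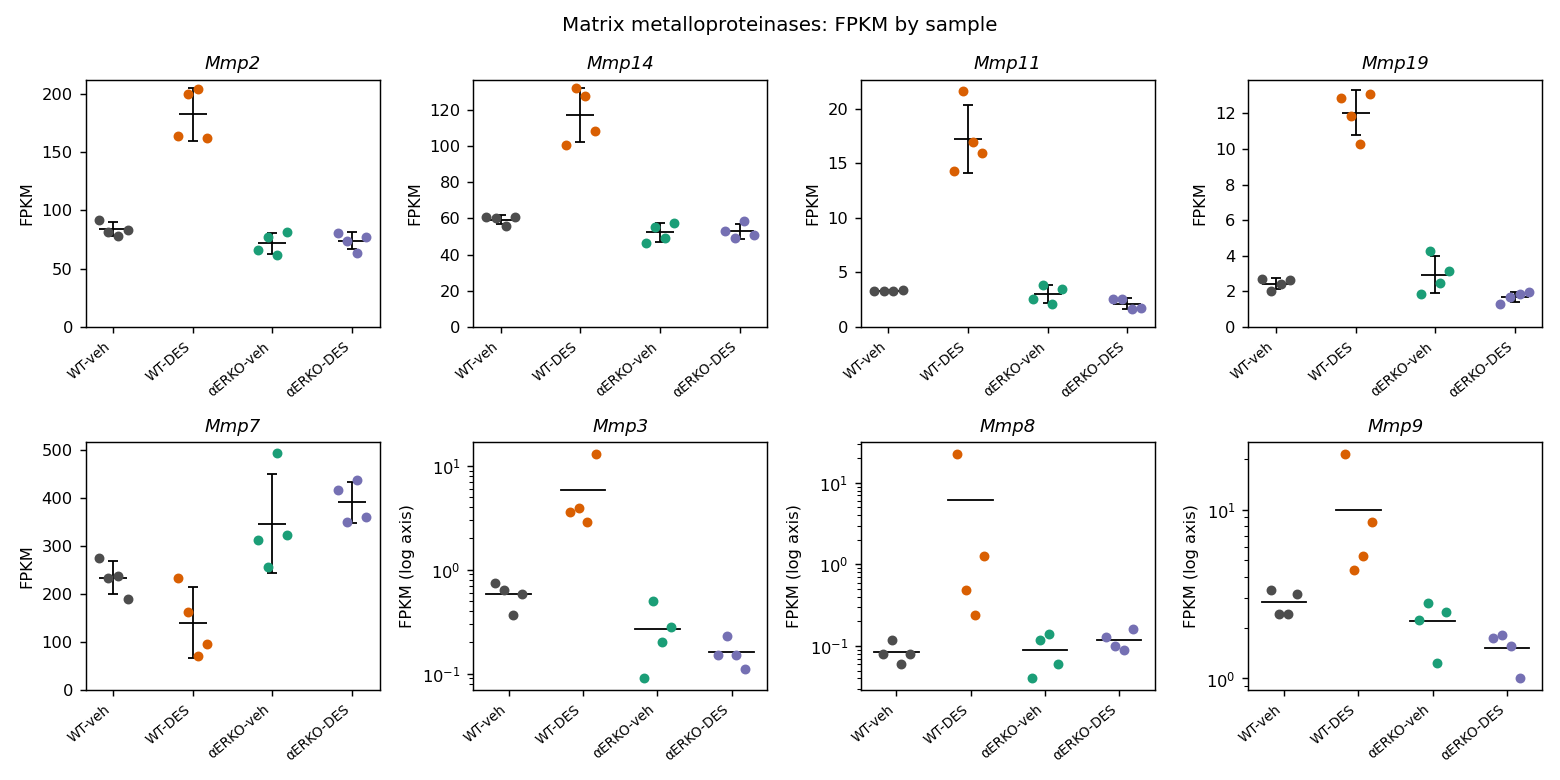
FPKM of 8 *Mmp* genes in each sample (points) of the 4 groups; bars give the mean and SD on the linear axes and the mean alone on the log axes of *Mmp3*, *Mmp8* and *Mmp9*. The WT-DES samples lie above the rest for each gene apart from *Mmp7*, where they reach lowest, at 70.4 FPKM.

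A cluster on chromosome 9 held 10 of the 23 *Mmp* genes within 427.1 kb (chr9:7272514-7699585), in the order *Mmp13*, *Mmp12*, *Mmp1b*, *Mmp3*, *Mmp1a*, *Mmp10*, *Mmp8*, *Mmp27*, *Mmp20* and *Mmp7*. Only *Mmp3*, *Mmp8* and *Mmp7* passed the minimum level, and these 3 differed in level and direction. The others were at or below 0.77 FPKM in every sample. Many collagenase and stromelysin genes are known to respond to AP-1, the Fos and Jun dimer, through the site TGACTCA, so promoters were searched for these letters on either strand. RefSeq windows on GRCm38.p6, from 250 bases before to 50 after the annotated start, were found for 32 of the 46 members. The letters occurred in 7 of the 10 cluster members, *Mmp13*, *Mmp12*, *Mmp1b*, *Mmp3*, *Mmp1a*, *Mmp10* and *Mmp7*, in none of the other 22 members with a window, and in 5.2% of all 32851 windows. Genes of the cluster are related by sequence, so the 7 are not independent. The palindromic oestrogen response element, GGTCA and TGACC with any 3 bases between them, was in none of the 32 members' windows and in 0.07% of all. *Mmp8*, *Mmp20* and *Mmp27* lacked the letters, and *Mmp7* had another window (chr9:7692091-7692390) without them. The sites of the 7 are shown on the strand of each gene, with 8 bases on each side and the site in capitals (TGAGTCA is TGACTCA read on the other strand).
Mmp13: caaagtggTGACTCAtcactatc
Mmp12: atcaacagTGAGTCAgatagagg
Mmp1b: acaaagccTGAGTCAtatagcct
Mmp3: agcaattaTGAGTCAgttttcgg
Mmp1a: gtcaaccaTGAGTCAcatagcct
Mmp10: cacccatgTGAGTCAtgcttagt
Mmp7: tgtgcaaaTGAGTCAcctatttc

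Of the 7 genes with these letters, *Mmp3* rose, *Mmp7* fell and 5 were under the minimum level. The window of *Mmp3*, the cluster member with the largest called change, is given in full (chr9:7445572-7445871, plus strand, 300 bases) to show its site 46 bases before the annotated start.
Mmp3 promoter window: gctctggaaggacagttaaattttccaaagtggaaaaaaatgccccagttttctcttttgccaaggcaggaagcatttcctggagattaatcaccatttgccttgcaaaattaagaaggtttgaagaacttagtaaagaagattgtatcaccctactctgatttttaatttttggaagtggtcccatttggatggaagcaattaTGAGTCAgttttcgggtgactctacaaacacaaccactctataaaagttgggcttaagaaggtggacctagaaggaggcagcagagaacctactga

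*Mmp3* (chr9:7445822-7455975, plus strand), stromelysin 1, which cuts many matrix proteins and activates other pro-MMPs, was at 0.74, 0.64, 0.37 and 0.58 for WT-veh, 3.56, 3.89, 2.88 and 13.1 for WT-DES, 0.09, 0.50, 0.20 and 0.28 for αERKO-veh and 0.15, 0.23, 0.15 and 0.11 for αERKO-DES. Every WT-DES sample was above every other sample, and sample 4 was far above the other 3. That sample also had the highest mean of 7 markers of basal or stratified epithelium, 6.49 against 4.69 to 5.52 in the other WT-DES samples. WT-veh was at 3.32 to 3.83, and 5 of the 7 were called as higher. WT-DES sample 4 was the highest of its group in adipose markers too (6.85 against 5.64 to 6.67), and in endothelial markers (5.05 against 4.32 to 4.96). The part of these cells in the *Mmp3* values was not tested. *Mmp3* rose by 1.91 (SE 0.29, limma adjusted p = 3.10e-05). *Mmp8* (chr9:7558456-7568485, plus strand), the collagenase of neutrophils, was at 0.08, 0.12, 0.06 and 0.08 for WT-veh, 22.8, 0.48, 0.24 and 1.28 for WT-DES, 0.04, 0.12, 0.14 and 0.06 for αERKO-veh and 0.13, 0.10, 0.09 and 0.16 for αERKO-DES. WT-DES sample 1, the sample highest in neutrophil markers, held most of the signal, and the other 3 WT-DES samples were still above all samples of the other groups. The change was 1.54 (SE 0.64, limma adjusted p = 0.0396), and the call was lost without any 1 of the WT-veh samples, while without WT-DES sample 1 the gene did not reach the minimum level.

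*Mmp7* (chr9:7692090-7699585, plus strand), matrilysin, an enzyme of glandular epithelium that processes antimicrobial peptides, was the *Mmp* gene of highest mean level over all 16 samples, although *Mmp2* was higher in WT-DES. The samples read 275, 234, 236 and 189 for WT-veh, 233, 163, 70.4 and 94.5 for WT-DES, 313, 256, 494 and 323 for αERKO-veh and 416, 349.6, 438 and 361 for αERKO-DES. WT-DES samples 2 to 4 were below all WT-veh samples and sample 1 was among them, whereas 7 of the 8 αERKO samples were at or above 313. It fell in WT-DES, with a log2 change of −0.87 (SE 0.29, limma adjusted p = 0.0146), and the change was −0.59 (limma adjusted p = 0.0554) without WT-DES sample 3. The call was also lost under quantile normalization, with a change of −0.17. *Mmp7* made up 50.5% ± 3.51 of the summed *Mmp* FPKM in WT-veh and 23.3% ± 8.96 in WT-DES. Of 6 epithelial markers, 4 were lower and 1 higher in WT-DES. All 4 anterior prostate markers were lower, with a mean of 8.87 to 9.84 in WT-veh and 2.87 to 5.87 in WT-DES. The part of epithelial or anterior prostate content in the *Mmp7* change was not tested.

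**Figure D4:**
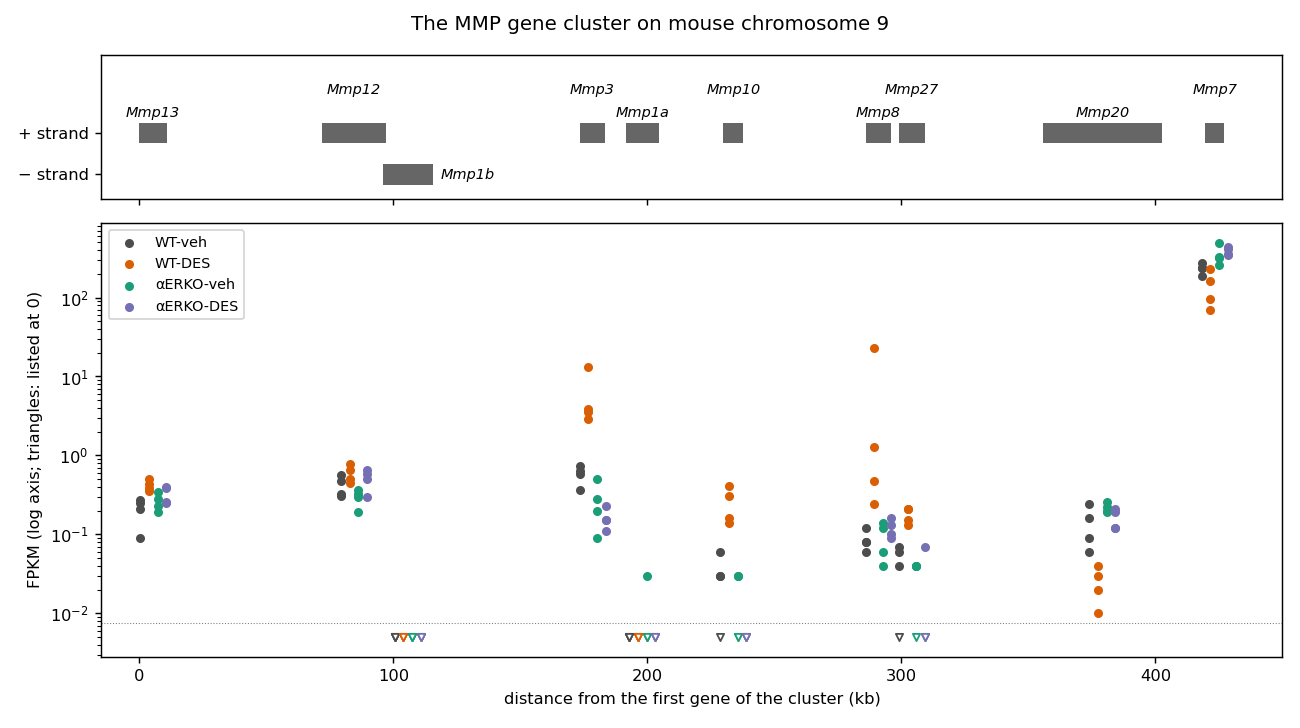
The 10 *Mmp* genes of the chromosome 9 cluster drawn to scale by strand (top), and their FPKM in each of the 16 samples on a log axis (bottom), with values listed at 0 as open triangles. Points stand near the middle of each gene, set side by side by group. *Mmp7* has the highest values, and *Mmp3* and *Mmp8* are highest in WT-DES.

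The ADAMTS genes were mostly raised. All 6 endothelial markers rose as well, with a mean of 3.32 to 3.54 in WT-veh and 4.32 to 5.05 in WT-DES, as did 7 of 10 adipose markers, from 3.59 to 5.57 in WT-veh to 5.64 to 6.85, beside the fibroblast markers given above. The part of these cells in the *Adamts* values was not tested. Among those that cut aggrecan or versican, *Adamts1*, *Adamts4*, *Adamts5*, *Adamts9* and *Adamts15* rose in WT-DES, *Adamts8* fell and *Adamts20* was under the minimum level. *Adamts1* (chr16:85793827-85803113, minus strand), an enzyme that cuts versican and is needed for ovulation and urogenital development, was at 5.21, 6.00, 4.81 and 6.52 for WT-veh, 18.2, 20.1, 16.1 and 23.4 for WT-DES, 4.98, 8.62, 7.10 and 7.44 for αERKO-veh and 4.61, 5.26, 5.58 and 5.40 for αERKO-DES. The WT-DES samples were the 4 highest, with a wide gap to the rest. It rose by 1.62 (SE 0.14, limma adjusted p = 1.01e-07). Its neighbour *Adamts5*, the main aggrecanase of cartilage, lies on the same strand, with its start 98.7 kb away, and rose from 2.10 ± 0.225 to 7.68 ± 1.84 FPKM. *Adamts4* rose from 0.79 ± 0.14 to 2.93 ± 0.843 and *Adamts9* from 4.50 ± 0.344 to 10.3 ± 0.769, the latter with exons that overlap *A730049H05Rik* by 1381 nt.

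A second pair of neighbours diverged. *Adamts15* and *Adamts8* lie 20.1 kb apart on opposite strands of chromosome 9. *Adamts15* rose from 5.64 ± 0.326 to 13.4 ± 2.8 FPKM. *Adamts8* (chr9:30942562-30963838, plus strand), a protease known from lung and heart, was at 5.49, 7.14, 5.62 and 5.88 for WT-veh, 4.08, 2.80, 4.39 and 4.35 for WT-DES, 5.91, 8.69, 6.08 and 6.61 for αERKO-veh and 5.65, 7.04, 4.42 and 6.15 for αERKO-DES. The WT-DES samples were the 4 lowest, by a narrow margin to αERKO-DES sample 3. It fell, with a log2 change of −0.53 (SE 0.15, limma adjusted p = 0.00456), and the call was lost without WT-veh sample 2 (−0.46), without WT-DES sample 2 (−0.41) and after rescaling without the 20 highest genes (−0.17).

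Of the enzymes that remove the N-terminal propeptide of fibrillar procollagens, *Adamts2* rose from 11.1 ± 0.973 to 24.8 ± 2.93 FPKM and *Adamts3* from 0.35 ± 0.0497 to 1.43 ± 0.0903, while *Adamts14* was at 2.57 ± 0.187 and 1.88 ± 0.608 and was not called. *Adamts7* and *Adamts12*, which cut cartilage oligomeric matrix protein, rose from 2.56 ± 0.182 to 4.75 ± 0.688 and from 0.88 ± 0.232 to 4.37 ± 0.968. The *Adamts7* call was lost under quantile normalization (a log2 change of 0.25) and with the length trend subtracted (0.44), and *Adamts3* was under the minimum level with quantile normalization.

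*Adamts10* (chr17:33524204-33553782, plus strand), which is tied to fibrillin microfibrils, was the *Adamts* gene of highest level in WT-DES. The samples read 11.2, 10.8, 10.9 and 10.9 for WT-veh, 36.7, 41.7, 42.5 and 34.3 for WT-DES, 9.10, 11.8, 8.51 and 10.5 for αERKO-veh and 8.61, 9.0, 5.53 and 6.34 for αERKO-DES. The WT-DES samples were all far above the rest, and the αERKO-DES samples were below those of WT-veh without overlap. It rose by 1.73 (SE 0.13, limma adjusted p = 2.50e-08). *Adamts6* (chr13:104287835-104496695, plus strand), its closest relative, was at 0.77, 0.88, 0.56 and 0.38 for WT-veh, 5.02, 3.98, 4.92 and 3.20 for WT-DES, 0.80, 1.35, 0.82 and 1.02 for αERKO-veh and 0.37, 0.72, 0.43 and 0.92 for αERKO-DES. Here too every WT-DES sample was above the other 12. It rose by 1.68 (SE 0.15, limma adjusted p = 1.80e-07). *Adamts19* (chr18:58836667-59054060, plus strand), an orphan member with no established substrate, was at 1.2, 1.35, 1.26 and 0.89 for WT-veh, 3.24, 8.61, 12.9 and 8.85 for WT-DES, 0.62, 0.99, 0.66 and 1.15 for αERKO-veh and 0.63, 0.49, 0.46 and 0.78 for αERKO-DES. WT-DES sample 1 was the lowest of its group and still above all other groups. It rose by 1.99 (SE 0.26, limma adjusted p = 5.68e-06). Its relative *Adamts17* went from 3.005 ± 0.346 to 1.89 ± 0.643, a fall whose call was lost without WT-DES sample 2 (a log2 change of −0.34) and after rescaling without the 20 highest genes (−0.20).

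**Figure D5:**
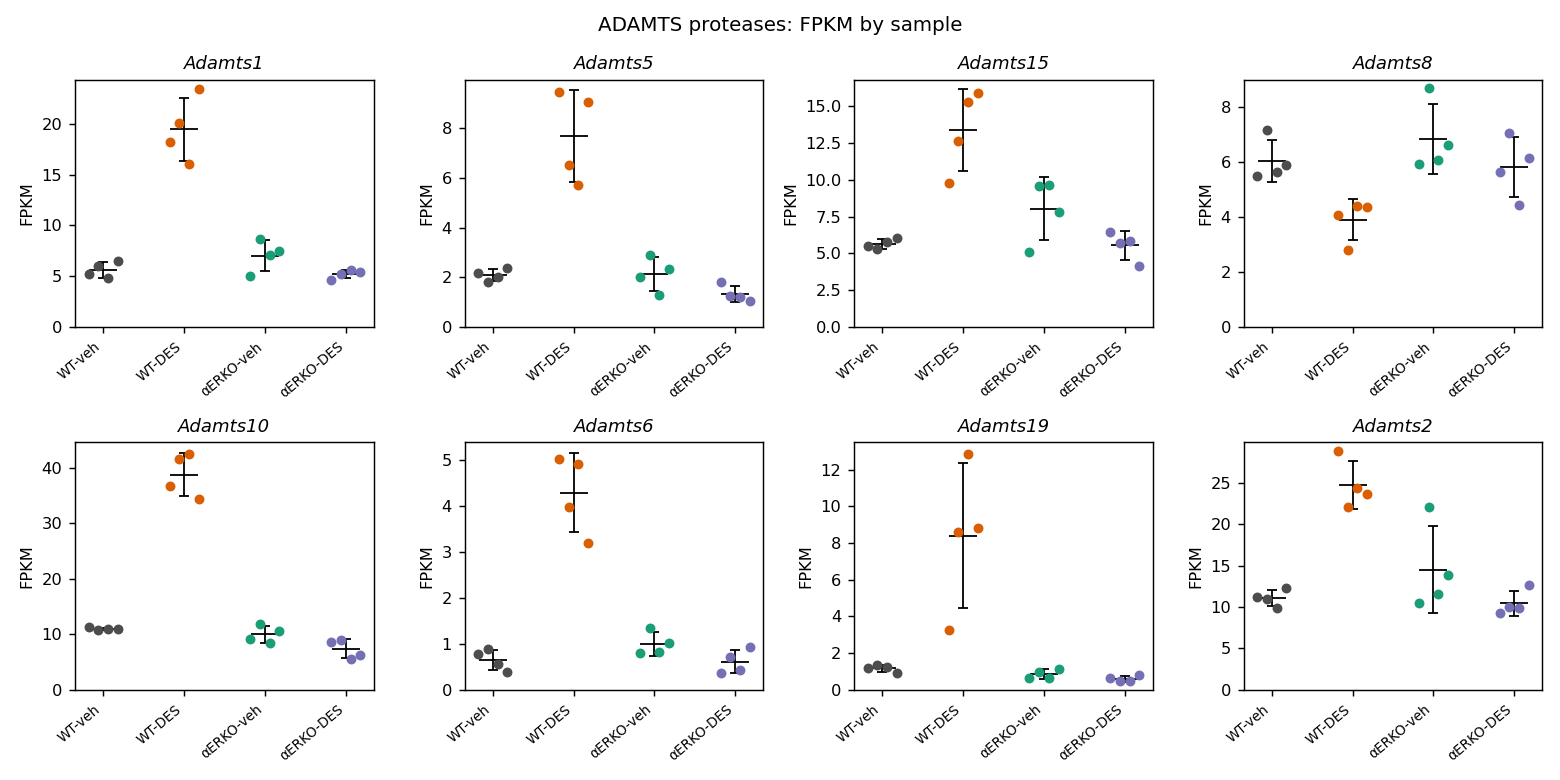
FPKM of 8 *Adamts* genes in each sample (points) of the 4 groups, with the mean and SD of each group (bars). The WT-DES samples are the highest for each gene apart from *Adamts8*, where they are at 2.80 to 4.39 FPKM against 5.49 to 7.14 in WT-veh.

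The 13 members under the minimum level were *Adamts13*, *Adamts16*, *Adamts18*, *Adamts20*, *Mmp1a*, *Mmp1b*, *Mmp10*, *Mmp12*, *Mmp13*, *Mmp20*, *Mmp21*, *Mmp24* and *Mmp27*. The highest value among them was 1.17 FPKM, of *Adamts20* in WT-DES sample 3. *Mmp1b* was listed at 0 in all 16 samples and *Mmp1a* in 15. In *Adamts18*, *Adamts20*, *Mmp10*, *Mmp13* and *Mmp27* every WT-DES sample was above every WT-veh sample, and in *Mmp20* every one was below, which makes 5 and 1 of the 13 against 7.24% and 1.58% of the 15286 genes under the minimum. *Adamts20* was at 0.30, 0.48, 0.26 and 0.35 in WT-veh and 0.93, 0.61, 1.17 and 0.84 in WT-DES. *Mmp10*, stromelysin 2, was at 0, 0.06, 0.03 and 0.03 in WT-veh and 0.41, 0.14, 0.16 and 0.31 in WT-DES, and *Mmp20*, enamelysin, at 0.06, 0.09, 0.24 and 0.16 in WT-veh and 0.03, 0.04, 0.01 and 0.02 in WT-DES. These members were not tested.

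Without DES, few of the members tested, and few of all genes, differed between the genotypes past the thresholds. Compared with WT-veh, 1 of 33 members was called in αERKO-veh, *Timp1*, which was lower, against 7.12% of all genes (4.5% higher and 2.63% lower). The unadjusted limma p was 0.05 or less for 10 members (30.3%) and for 38.9% of all genes. The groups did not overlap for 3 members that were higher and 3 that were lower, against 12.6% and 17.1% of all genes. *Timp3* was higher by 0.49 (SE 0.12, limma adjusted p = 0.013) and *Mmp23* lower, with a difference of −0.56 (SE 0.15, limma adjusted p = 0.0161), both without overlap of samples and both short of the 1.5-fold ratio. Without αERKO-veh sample 1, 5 members were called (*Timp1*, *Timp3*, *Adamts12*, *Adamts15* and *Mmp23*). Calls among all genes went up as well, to 1690 of 16011 from 1139 of 15988. Skeletal muscle markers were also higher in αERKO-veh, 7 of 14 of them called, and sample 1 had the lowest mean of that group at 3.56. The part of these cells in the values was not tested.

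In αERKO mice, DES changed no member past the thresholds. By limma, 0 of 33 members were called when αERKO-DES was compared with αERKO-veh, against 1.49% of all genes (0.0876% higher and 1.41% lower). Of all genes, 239 were called, but 1 to 3 without αERKO-veh sample 2 or 4 or αERKO-DES sample 1, 2 or 3, and 653 without αERKO-veh sample 1. The unadjusted p was 0.05 or less for 13 members (39.4%) and for 25.3% of all genes. The groups did not overlap for 4 members, all lower, against 6.4% of all genes higher and 6.57% lower. Weighting the samples with arrayWeights gave 4 calls (*Adamts5*, *Adamts12* and *Mmp19* lower and *Timp1* higher), a pseudocount of 0.1 gave *Adamts12* alone, and the fit without αERKO-veh sample 1 gave 3 (*Adamts12*, *Adamts15* and *Mmp19*). In the same 3 settings 1119, 401 and 653 of all genes were called. The change was below 0 in 23 of 33 members, with a median of −0.20 against 0.02 for all genes. The median was −0.12 without αERKO-veh sample 2 and −0.10 under quantile normalization. That sample was the highest of its group for 20 of the 33 members, and also in the mean of the adipose (5.89 against 2.56 to 4.53), endothelial (4.26 against 3.49 to 3.70) and fibroblast markers (5.91 against 5.32 to 5.77). The most negative value was that of *Timp4*, −1.75 (SE 0.59, limma adjusted p = 0.0968). In this comparison 10 of 14 skeletal muscle and 6 of 10 adipose markers were lower, and 2 of 7 fibroblast markers, and their part in the member values was not tested.

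The difference between genotypes in the response to DES was tested as an interaction, the change in WT minus the change in αERKO. It was called for 25 of 33 members, 23 with a more positive and 2 with a more negative change in WT, against 56.4% of all genes (29.6% more positive and 26.9% more negative). Of the 7 members tested only through WT-DES, all but *Mmp8* are among the 23. The size of the interaction was −4.28 (SE 0.39, limma adjusted p = 3.71e-07) for *Timp1*, 1.45 (SE 0.18, limma adjusted p = 5.28e-06) for *Timp2* and 1.36 (SE 0.17, limma adjusted p = 6.05e-06) for *Timp3*. Among the proteases it was 2.44 (SE 0.22, limma adjusted p = 3.38e-07) for *Mmp19*, 2.4 (SE 0.22, limma adjusted p = 2.98e-07) for *Mmp11* and 2.14 (SE 0.18, limma adjusted p = 1.91e-07) for *Adamts10*. *Mmp7* had the other negative call, −1.08 (SE 0.42, limma adjusted p = 0.0296), which was lost without WT-veh sample 1, WT-DES sample 3 (−0.80) or 4, αERKO-veh sample 2 or αERKO-DES sample 3 in turn. For *Mmp8* the interaction was 1.5 (SE 0.90, limma adjusted p = 0.146), and for *Adamts8* it was −0.33 (SE 0.21, limma adjusted p = 0.169), neither of them called. *Timp4*, at 1.32 (SE 0.83, limma adjusted p = 0.166), was called only without WT-veh sample 4, at 2.03.

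The same WT-DES samples set beside αERKO-DES gave 28 called members, 4 higher and 24 lower in αERKO-DES, against 53.4% of all genes, 23.7% higher and 29.6% lower. The groups did not overlap for 3 members that were higher and 25 that were lower, against 33.8% and 32.7% of all genes. This comparison shares the WT-DES samples with the first, and the 7 members tested only through WT-DES are all among the 24. *Timp1* was higher in αERKO-DES by 3.06 (SE 0.28, limma adjusted p = 1.36e-07) and *Mmp7* by 1.62 (SE 0.29, limma adjusted p = 0.000147), and *Adamts17* and *Mmp17* were the other 2 that were higher. The *Mmp17* call was lost without WT-DES sample 2, 3 or 4 or αERKO-DES sample 4 in turn and after rescaling (0.41), as was that of *Adamts17* (0.33). The log2 difference was −2.54 for *Mmp11*, −2.45 for *Adamts19*, −2.35 for *Mmp3* and −1.29 for *Mmp2*, all lower in αERKO-DES. For *Mmp2* this compares 161.9 to 204 FPKM in WT-DES with 63.8 to 80.9 in αERKO-DES, with no overlap.

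Further genes of the same pathways were counted in 6 lists, to be read beside the 28.9% of all genes that were called as higher and the 23.9% called as lower in WT-DES. Of 18 tested protease activators and inhibitors, 12 rose and 3 fell. *Serpine2*, protease nexin 1, an inhibitor of plasminogen activators and thrombin, fell from 708 ± 33.4 to 87.1 ± 37.1 FPKM, and *Thbs1* and *Thbs2*, the thrombospondins, rose from 4.85 ± 1.24 to 36.8 ± 17.1 and from 1.675 ± 0.229 to 21.0 ± 12.8. Of 11 membrane ADAM proteases 7 rose and none fell, led by *Adam8*, from 1.17 ± 0.252 to 14.7 ± 5.04. Of 5 ADAMTS-like proteins, which share the ancillary domains but lack a protease, 4 rose, among them *Adamtsl1* from 3.97 ± 0.656 to 16.8 ± 1.70. Of 15 tested matrix substrates 9 rose and none fell, with decorin (*Dcn*), which is also in the fibroblast list, from 255 ± 21.1 to 709.8 ± 39.99. Of 7 cysteine cathepsins 4 rose, with *Ctss*, an enzyme of antigen-presenting cells, from 27.3 ± 5.25 to 161 ± 39.6. Of 15 transcription factors and cytokines known to induce *Mmp* genes, 12 rose and 1 fell, and *Il1b* went from 0.39 ± 0.15 to 29.0 ± 25.3 and *Tnf* from 0.355 ± 0.214 to 5.64 ± 2.08. Among the genes of largest change in each list, *Il1b*, *Tnf*, *Il1a*, *Adam12* and *Adamtsl3* had a mean above 1 FPKM in WT-DES alone. They were thus tested only through the group in which they were high. With DES in αERKO mice, 1 gene of these 6 lists was called, *Dcn*, which was lower.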

How the data were processed

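RNA-seq of seminal vesicles at week 5 was analysed in 16 samples of 4 groups, grouped by the sample labels. For the deposited table of FPKM, the authors took paired-end reads of 126 nt with a mean quality above 20, used TopHat 2.0.4 for alignment to mm10, and then ran Cufflinks 2.0.2. The annotation used for the table and any further scaling between samples are not given in the sources used here. FPKM hold no counts, so the precision rests on the spread between samples; relative depth was taken, after the data were seen, from the commonest ratio between 2 samples over 11781 low genes.

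Values were analysed as log2(FPKM + 1), with a pseudocount of 1, in R 4.3.3 with limma 3.58.1, in 1 model of 16 samples that held the mean of each group; eBayes used trend=TRUE, and p was adjusted by Benjamini-Hochberg over the 15988 genes whose mean FPKM exceeded 1 in some group. A call needed an adjusted p no higher than 0.05, means that differed 1.5-fold or more, and 1 mean above 1; for the interaction, a 1.5-fold difference on the log2 scale replaced the ratio. Values in every sample are given for the 8 largest rises and up to 8 largest falls in WT-DES without overlap of samples, members called in either of the comparisons without DES or without ERα, the 5 of highest mean FPKM, and *Timp1* to *Timp4*, *Mmp2*, *Mmp9* and *Mmp14*; *Mmp17*, *Mmp10*, *Mmp20* and *Adamts20* were added after their values were seen. The members and lists were chosen with earlier results of these data known. Alternatives tried were no minimum or 1 of 5, a pseudocount of 0.1, median-ratio, quantile and rescaled values, a length trend subtracted (lowess, span 0.3; 94.12% of tested genes had a length), a replicate block, a model of only the groups compared, sample weights and leaving out each sample. The steps were tested on simulated data. Coordinates are from GENCODE on GRCm38 and promoters from RefSeq on GRCm38.p6. Tables were made with pandas 2.3.3 and numpy 2.4.6 in Python 3.11.15, and figures with matplotlib 3.10.9.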

Additional observations from a re-analysis of the deposited data

Results flagged for a closer look

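In 5 of 132 sets of 4 samples, 1 sample lay far from the other 3 by Dixon's criterion, where chance alone gives about 1 in 20. These were *Mmp8* at 22.8 FPKM in WT-DES sample 1 (the other 3 at 0.24 to 1.28), *Mmp3* at 13.1 in WT-DES sample 4 (2.88 to 3.89), *Mmp17* at 21.0 in WT-DES sample 1 (6.11 to 8.46), *Mmp28* at 10.2 in αERKO-DES sample 1 (13.2 to 13.6) and *Mmp14* at 55.8 in WT-veh sample 3 (60.2 to 60.8).

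The change with DES differed between the genotypes for 25 members by the limma interaction test, against 56.4% of all genes. Of these members, *Adamts3*, *Adamts4*, *Adamts6*, *Mmp3*, *Mmp16* and *Mmp25* were tested only through WT-DES, the group in which they were high. As the WT change less the αERKO change on the log2 scale, the *Mmp* values were 2.44 for *Mmp19*, 2.4 for *Mmp11*, 2.02 for *Mmp3*, 1.60 for *Mmp9*, 1.5 for *Mmp25*, 1.28 for *Mmp16*, 1.06 for *Mmp2*, 0.94 for *Mmp14*, 0.77 for *Mmp23* and −1.08 for *Mmp7*. For the ADAMTS genes they were 2.21 for *Adamts12*, 2.21 for *Adamts19*, 2.14 for *Adamts10*, 1.99 for *Adamts6*, 1.97 for *Adamts1*, 1.87 for *Adamts5*, 1.54 for *Adamts15*, 1.48 for *Adamts2*, 1.41 for *Adamts9*, 1.22 for *Adamts4*, 0.97 for *Adamts3* and 0.62 for *Adamts7*. For the inhibitors they were 1.45 for *Timp2*, 1.36 for *Timp3* and −4.28 for *Timp1*. The call for *Adamts7* was lost without WT-DES sample 3 (0.56), αERKO-veh sample 4 (0.58) or αERKO-DES sample 3 (0.55). It was also lost with the length trend subtracted (0.30) and under quantile normalization, where it was −0.02. Quantile normalization also ended the call for *Adamts4* (0.56) and left *Adamts3* under the minimum level.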

How the results depend on the processing

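The number of members called between WT-DES and WT-veh was 20 to 28 under the alternatives, the lowest with a minimum of 5, which tests fewer genes, and 26 to 28 without 1 sample. Between αERKO-DES and WT-DES it was 19 to 29 (26 to 28 without 1 sample), and in the interaction 18 to 26 (23 to 26). Between αERKO-veh and WT-veh the 1 call became 2 under quantile normalization, the length trend, the replicate block and arrayWeights and 3 after rescaling, with 1 to 5 without 1 sample. Among all genes, 1139 calls became 857, 455, 1125, 1684 and 1573 in that order, with 418 to 1690 without 1 sample. Between the αERKO groups the 0 calls became 1 with a pseudocount of 0.1 and 4 with arrayWeights, with 0 to 3 without 1 sample. There, 239 calls among all genes became 401 and 1119, with 1 to 653 without 1 sample. The cause was not tested. Of 745 values for 35 changes of the 17 members described in full, 717 kept direction and side of the threshold, 24 lost the call, 2 gained it and 2 reversed: *Timp4* in WT-DES without WT-veh sample 4 (−0.91 to 0.28 without 1 sample) and *Adamts8* in the interaction after rescaling (0.14). Between WT-DES and WT-veh the call was also lost for *Mmp8* with no minimum, quantile normalization (1.36) and a model of only these groups, for *Mmp7* after rescaling (−0.44) and with the length trend (−0.43), and for *Adamts8* with median-ratio scaling (−0.49). In the interaction, *Mmp7* lost its call under quantile normalization (−0.19), rescaling (−0.52) and the length trend (−0.52), and under quantile normalization *Mmp9* lost its call (1.06) and *Adamts8* gained one (−0.87). Among the other members between WT-DES and WT-veh, *Adamts14* was called as lower under quantile normalization (−0.80) and the length trend (−0.56), *Mmp17* as lower with the length trend (−0.89) and *Adamts20* as higher after rescaling (0.65), while *Adamts7*, *Adamts3* and *Adamts17* lost calls as given with their values. *Mmp8* in αERKO-DES against WT-DES lost its call without any 1 of the αERKO-DES samples. Rescaling moved the median of all genes by 0.39 between WT-DES and WT-veh, 0.14 for αERKO-veh against WT-veh, −0.10 for αERKO-DES against αERKO-veh, −0.34 in αERKO-DES against WT-DES and 0.51 in the interaction, and the share of all calls that were higher from 54.7% to 79.2% for WT-DES against WT-veh, 63.1% to 92.4% for αERKO-veh against WT-veh, 44.5% to 23.6% for αERKO-DES against WT-DES and 52.4% to 78.8% in the interaction. Replicate numbers did not pair the samples: 24 same-numbered pairs had correlations of −0.215 to 0.277. The replicate block gave 28, 2, 0, 28 and 26 calls in the order WT-DES against WT-veh, αERKO-veh against WT-veh, αERKO-DES against αERKO-veh, αERKO-DES against WT-DES and interaction. With no counts, single low values have no interval.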
